A study of Homo sapiens with 40 samples.

Results

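CCHCR1 (coiled-coil alpha-helical rod protein 1) is 1 of 55765 gene symbols counted in 40 RNA-Seq libraries from HEK293 cells, an established human embryonic kidney line. The gene was selected on the immunoprecipitation comparisons of these libraries, where its mRNA stood far above all other groups in the DDX6 precipitate, so every value from that experiment is given as a description with no test. The other comparisons were not used in the choice and were tested. The 12 groups belong to 3 experiments. In the RNA immunoprecipitation experiment (RIP), endogenous eIF4A1, eIF4A2 or DDX6 was precipitated from untransfected HEK293 cells without crosslinking, and the bound RNA (IP) was sequenced beside total RNA (n = 3 per group). In the sucrose gradient experiment, HEK293 cells received control siRNA or CNOT1 siRNA, and RNA was sequenced from the input, from a subpolysomal pool (fractions 1 to 5) and from a polysomal pool (fractions 6 to 11; n = 4 per group). In the third experiment, HEK293 total RNA was sequenced after control siRNA or after knockdown of TNRC6A together with TNRC6B (n = 2 per group). An siRNA lowers its target without removing it, and a precipitation with a non-specific antibody was not analysed here.

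CCHCR1 is a coiled-coil protein found at the centrosome and in processing bodies (P-bodies), the cytoplasmic granules in which translationally repressed mRNAs gather with decapping factors. DDX6 is a DEAD-box helicase needed for P-body assembly, and it binds both CNOT1, the scaffold of the Ccr4-Not deadenylase complex, and the decapping activators EDC3, PATL1 and LSM14A. eIF4A1 and eIF4A2 are related DEAD-box helicases, and CCHCR1 protein is known to bind EDC4, a scaffold of the decapping complex.

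The CCHCR1 gene lies on the minus strand of chromosome 6 at chr6:31110216-31126015 (GRCh37), in the psoriasis-linked part of the MHC class I region. GENCODE release 44 lists 32 transcripts for it, and no other annotated gene overlaps it. TCF19, on the plus strand, starts 93 bp away, and PSORS1C1 ends 2347 bp from the other side of the gene. The main coding transcript has 18 exons, a 5′UTR of 202 nt that lies in exon 1, a coding sequence of 2616 nt and a 3′UTR of 153 nt. The counts are sums over the gene, so the transcripts cannot be told apart in them.

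The study asks about purine-rich stretches of the 5′UTR, and the stretch of the CCHCR1 5′UTR densest in them is therefore shown, read from the GRCh37 transcript sequence on the minus strand at chr6:31125469-31125498, nucleotides 82 to 111 of the 5′UTR, in exon 1. The paper reports such motifs as enriched in the 5′UTR and coding sequence of mRNAs bound only by eIF4A2, most of all just before the start codon. The stretch shown ends at nucleotide 111 of 202, away from the start codon. How many such motifs lie just before the start codon of CCHCR1 was not counted. CCHCR1 was not higher in the eIF4A2 IP than in total RNA. Capitals mark purine tetramers.
CCHCR1 5′UTR: AGAGAGAAgctGAGAgaacagccgcaGGAA
This window of 30 nt holds 4 of the 9 tetramers found in the CCHCR1 5′UTR when 8 tetramers were counted on the mRNA strand without overlap. The tetramers were AAGA with its shift AGAA, then GAAA followed by GAGA, then AGAG followed by GGAA, then AAAA followed by GAAG. Their density was 4.46 per 100 nt, above that of 93.2% of 13068 other 5′UTRs of at least 20 nt, whose median was 1.68. In the coding sequence of CCHCR1 the density was 3.10 per 100 nt against a median of 3.00, and in its 3′UTR 2.61 against 2.79. The CCHCR1 5′UTR had a GC content of 54.0%, below the median of 67.4%, and its 3′UTR was shorter than that of all but 6.35% of genes. These ranks cover the 13674 genes with a coding transcript among the 17474 genes tested in the RIP experiment, or 78.3%, so a rank among all tested genes would be void. At least 1 tetramer was present in 81.5% of the 5′UTRs, and a match of these letters is a description only.

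CCHCR1 was well covered in every library, with 210 to 9663 counts out of 15.4 to 46.0 M per library. Levels are in CPM, counts per 1 M counts of a library total adjusted by TMM factors, set separately in each experiment. In 2 libraries the siRNA target went against the label. CNOT1 stood at 28.3 CPM in the library labelled control siRNA polysomal replicate 3, where the other 3 of that group held 470 to 501 CPM. It stood at 631 CPM in the library labelled CNOT1 siRNA polysomal replicate 3, where the others held at most 31.6 CPM. Each polysomal result for CCHCR1 is given with and without both libraries. In the remaining gradient groups the labels held, with CNOT1 at 628 to 711 CPM in control input and 36.8 to 41.4 CPM after CNOT1 siRNA. In subpolysomal RNA CNOT1 stood at 235 to 317 CPM with control siRNA and 73.5 to 89.6 CPM with CNOT1 siRNA, a smaller fold difference than in input. TNRC6A stood at 178 and 189 CPM with control siRNA and at 40.5 and 64.7 CPM with TNRC6A and TNRC6B siRNA, and TNRC6B at 67.6 and 73.1 CPM against 17.7 and 26.3 CPM; neither difference passed the threshold in edgeR (adjusted p = 1.0). In the IPs the target is the protein, so the mRNA of EIF4A1 or EIF4A2 does not check the labels. EIF4A1 stood at 1.3 to 10.9 CPM over the RIP libraries (53 to 479 counts), and why its counts were so low was not tested. EIF4A2 stood at 851, 852 and 1133 CPM in the eIF4A2 IP and at 375 to 488 CPM in the other RIP libraries.

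The first comparison asks how much CCHCR1 mRNA came down with each helicase. A level in an IP is a share of the RNA in that precipitate. CCHCR1 stood at 43.2, 38.8 and 36.8 CPM in total RNA (39.6 ± 3.27, SD, n = 3). In the DDX6 IP it stood at 219, 109 and 85.7 CPM (138 ± 71.0, SD, n = 3). Every DDX6 IP library lay above all 9 other RIP libraries, which held of 17474 genes for 1.32%. In the eIF4A1 IP the level of CCHCR1 was 33.3, 32.1 and 23.6 CPM (29.7 ± 5.30, SD, n = 3), and in the eIF4A2 IP it was 33.3, 31.7 and 21.4 CPM (28.8 ± 6.45, SD, n = 3). With TMM factors both eIF4A groups lay below every total RNA library, and they overlapped each other almost fully. How many genes show such a separation was not counted. Per library total without TMM factors, CCHCR1 was 32.2 to 37.7 per 1 M counts in total RNA. It was then 24.9 to 36.6 in the eIF4A1 IP and 24.2 to 36.9 in the eIF4A2 IP, so these groups overlapped total RNA.

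The log2 fold change of CCHCR1 between the DDX6 IP and total RNA was 1.80 (SE 0.29), a 3.48-fold difference. Against the eIF4A1 IP it was 2.22 (SE 0.30) and against the eIF4A2 IP 2.26 (SE 0.30), or 4.64-fold and 4.79-fold. The eIF4A1 IP minus total RNA gave −0.41 (SE 0.29) and the eIF4A2 IP minus total RNA −0.46 (SE 0.29). The 2 eIF4A IPs differed by −0.05 (SE 0.29) in log2 CCHCR1 level. These comparisons share libraries, and as the gene was chosen by them no p-value is given.

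Replicate 1 of the DDX6 IP held more CCHCR1 mRNA than the other 2 libraries of that group. Its counting interval (95%, exact Poisson) ran from 214 to 223 CPM, against 106 to 112 CPM in replicate 2 and 83.1 to 88.5 CPM in replicate 3, so the spread between the replicates was wider than counting error. Without that library the log2 fold change of CCHCR1 was 1.30 against total RNA, 1.71 against the eIF4A1 IP and 1.76 against the eIF4A2 IP. The same-numbered ratio of the DDX6 IP to total RNA was 5.07, 2.81 and 2.33 in replicates 1, 2 and 3, numbered by title; the description of the total RNA library titled replicate 3 says replicate 2. The biological coefficient of variation of CCHCR1 over the RIP libraries was 0.25, above that of 87.1% of the genes tested, whose median was 0.17.

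**Figure D1:**
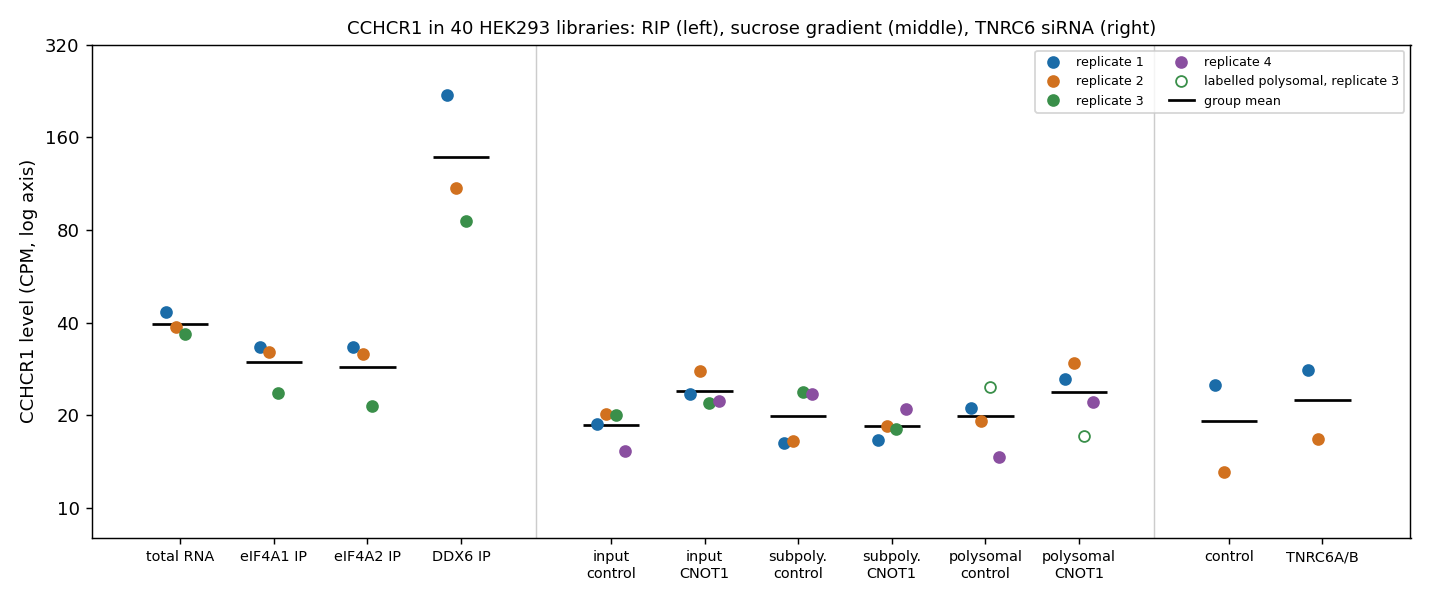
CCHCR1 level in each of the 40 libraries (CPM, log axis), coloured by replicate number, with black lines for the group means. The 3 DDX6 IP libraries sit at 85.7 CPM or more and no other library passes 43.2 CPM; open circles are the polysomal libraries labelled replicate 3.

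Among the 10021 genes with a mean of at least 10 CPM over the RIP libraries, CCHCR1 had the highest log2 fold change of the DDX6 IP over the eIF4A1 IP. The next were DCP1B at 1.74 and DAB2 at 1.55. CCHCR1 was also the first of these genes in the DDX6 IP against the eIF4A2 IP, where RPS19 followed at 1.91. Against total RNA CCHCR1 took place 19, and PABPC1 led at 2.46. These places describe why the gene was chosen.

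The 5 genes whose log2 level followed that of CCHCR1 most closely over the 12 RIP libraries were ATXN2 (Pearson r = 0.93), ATXN2L (0.93), DCP1B (0.92), EDC3 (0.91) and DAB2 (0.91). ATXN2 and ATXN2L encode ataxin-2 family RNA-binding proteins, DCP1B a decapping coactivator, EDC3 an enhancer of decapping that binds DDX6, and DAB2 an endocytic adaptor. ATXN2 stood at 90.2, 89.0 and 84.4 CPM in total RNA and at 333, 186 and 227 CPM in the DDX6 IP. DCP1B stood at 19.7, 19.7 and 15.5 CPM in total RNA, at 8.7 to 12.3 CPM in the eIF4A IPs and at 49.4, 26.1 and 27.3 CPM in the DDX6 IP. CCHCR1 and all 5 of these genes were highest in DDX6 IP replicate 1. Like CCHCR1 with TMM factors, DCP1B lay below total RNA in both eIF4A IPs. ATXN2L, by contrast, stood at 206 to 260 CPM in total RNA and at 183 to 323 CPM in the eIF4A IPs. The 12 libraries share 3 replicate numbers and the 3 DDX6 IP libraries set much of each r. Ranked by Spearman's rho in place of r, 0 of these 5 genes were among the nearest 5.

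**Figure D2:**
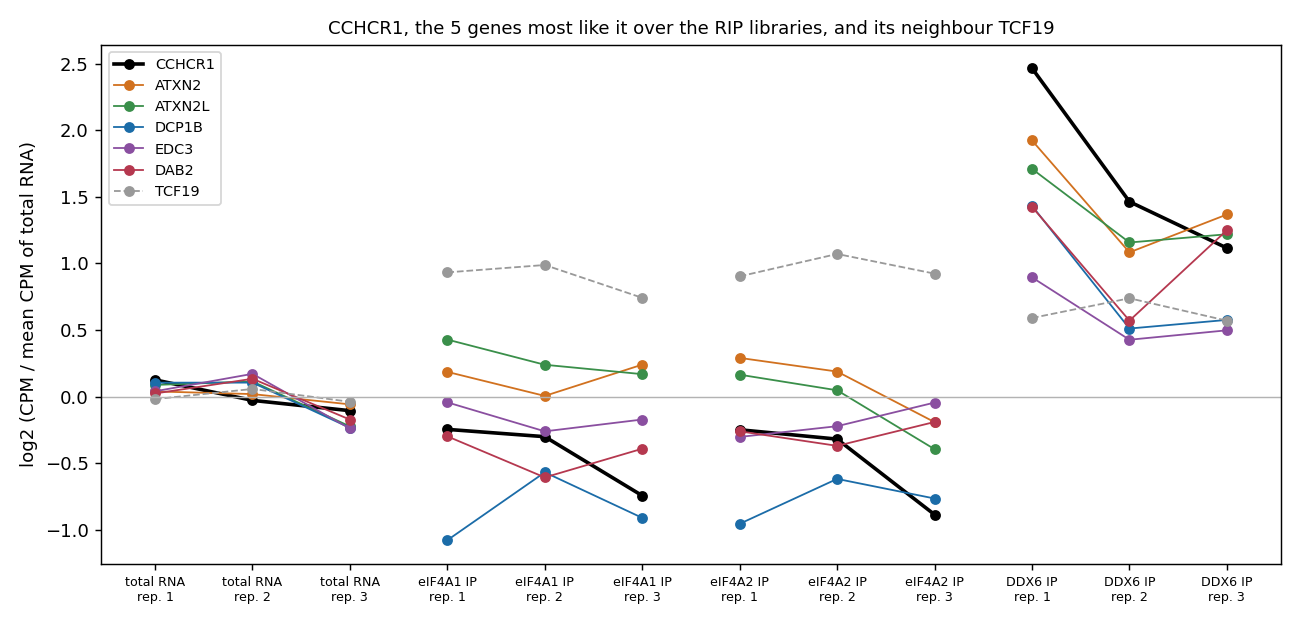
Level of CCHCR1, of the 5 genes most like it and of its neighbour TCF19 in the 12 RIP libraries, as log2 of CPM over the gene's mean in total RNA. CCHCR1 (black) lies under the total RNA line in all 6 eIF4A IP libraries and above it in the 3 DDX6 IP libraries; TCF19 (dashed) lies above that line in all 9 IP libraries.

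Because CCHCR1 protein is placed in P-bodies, the mRNAs of 25 known P-body and decapping factors were set beside it. All 25 were tested. In the DDX6 IP against total RNA, 14 were higher and 3 lower, where 46% of all genes were called in either direction (edgeR, FDR below 0.05). With library totals in place of TMM factors the split was 16 and 1, where 5055 of all genes were higher and 2991 lower. With TMM factors the median log2 fold change of the list was 0.65, against 0.0089 over all genes. Those called higher included DDX6 itself (1.58, SE 0.16), DCP1A (1.46, SE 0.22), PATL1 (1.39), DCP1B (0.90, SE 0.23), DCP2 (0.74, SE 0.14), the catalytic decapping enzyme, and 5 of the 7 LSM1 to LSM7 ring subunits. EDC4 (−0.71, SE 0.16), AGO2 (−0.63) and the 5′ to 3′ exonuclease XRN1 (−0.63) were the 3 called lower. CCHCR1, at 1.80, was above every member of the list, but it was chosen on the IP comparisons. Over total RNA, the eIF4A1 IP had 9 of the 25 higher and 5 lower (median 0.09), where 52.6% of all genes were called. The eIF4A2 IP had 4 and 4 (median 0.06), where 50.3% were called. With library totals alone these were 10 and 1, and 12 and 0, where 54.6% and 53.7% were called. DCP2 stood at 165 to 198 CPM in total RNA. It was higher in every IP, at 307 to 401 CPM (eIF4A1), 403 to 436 CPM (eIF4A2) and 275 to 333 CPM (DDX6).

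Against the eIF4A1 IP, 4 of the 25 P-body mRNAs were called higher in the DDX6 IP and 0 lower, against 0.0916% of all genes. They were DCP1B (1.74), DCP1A (1.37), PATL1 (1.31) and DDX6 (0.95), and CCHCR1 at 2.22 was above them all. With only the compared libraries 0 of the 25 were called, where 0% of all genes were, and 8 had an unadjusted p under 0.05. Library totals alone gave 2, where 0.0687% of all genes were called. With the replicate number as a block 8 were higher and 0 lower, where 9.9% of all genes were called. Without DDX6 IP replicate 1, DCP1B and PATL1 remained, as 2 of the 25, against 0.0168% of all genes. Against the eIF4A2 IP, 9 P-body mRNAs were higher and 1, DCP2 (−0.49), was lower, against 21.1% of all genes. The block gave 13 higher and 1 lower (40.5% of all genes), and leaving out DDX6 IP replicate 1 gave 8 higher and 0 lower (14.5% of all genes). The list was assembled with these results known, so its counts are no independent support. CCHCR1 was chosen on the IP comparisons, so its place above the list is a description only.

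**Figure D3:**
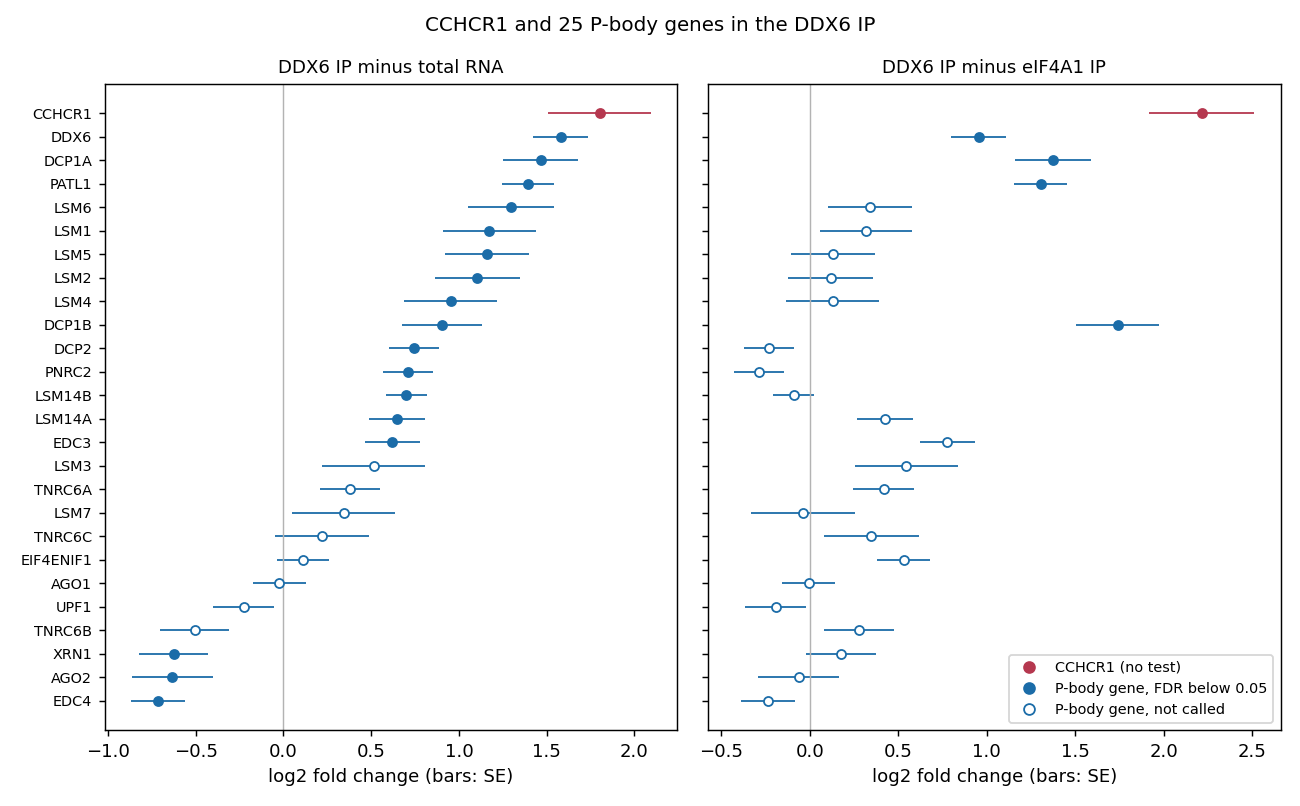
Log2 fold change (bars, SE) of CCHCR1 (red, no test) and of 25 P-body mRNAs (blue; filled where the FDR was below 0.05) in the DDX6 IP against total RNA on the left and against the eIF4A1 IP on the right. CCHCR1, chosen on the IP comparisons, has the highest value in both panels, 1.80 and 2.22. DCP1B, DCP1A, PATL1 and DDX6 are the 4 filled blue points on the right.

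The mRNAs of 30 centrosome proteins were set beside CCHCR1 as well. In the DDX6 IP against total RNA 3 were called higher and 11 lower, or 46.7% of the list where 46% of all genes were called, so the share called was near that of all genes. The median log2 fold change of the list was −0.48, against 0.0089 over all genes. PCM1, the scaffold of centriolar satellites, gave −0.87 (SE 0.17) and was called lower. PCNT, a pericentriolar scaffold, gave −0.74 (SE 0.31) and CEP192, a centriole duplication factor, −0.06 (SE 0.16), and neither was called. Against the eIF4A2 IP 1 was higher and 6 lower, 23.3% of the list against 21.1% of all genes. Against the eIF4A1 IP, 0 of the 30 were called in edgeR, where 0.0916% of all genes were, and DESeq2 called 1, where it called 4.6% of all genes. In the eIF4A1 IP against total RNA, 4 of the 30 were higher and 13 lower (median −0.40), where 52.6% of all genes were called. For the eIF4A2 IP these were 5 and 8 (median −0.15), where 50.3% were called. PCM1 stood at 180 to 200 CPM in total RNA and was lower in every IP, at 69.9 to 95.0 CPM (eIF4A1), 101 to 123 CPM (eIF4A2) and 79.0 to 118 CPM (DDX6).

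The genes next to CCHCR1 on chromosome 6 give the levels of transcripts from the same region. Of 11 listed neighbours within 200 kb that were placed on the annotation, 4 passed the filter on low counts, and PSORS1C1 and PSORS1C2 were not among them. TCF19, a growth-regulated gene that starts 93 bp from CCHCR1, stood at 77.6, 81.9 and 76.6 CPM in total RNA. It was 132 to 156 CPM in the eIF4A1 IP, 147 to 165 CPM in the eIF4A2 IP and 117 to 131 CPM in the DDX6 IP. TCF19 was thus higher in all 3 IPs, with log2 fold changes over total RNA of 0.89, 0.97 and 0.63, and its DDX6 IP was below its eIF4A IPs. HLA-C stood at 102 to 134 CPM in total RNA and at 36.4 to 40.5 CPM in the DDX6 IP, a log2 fold change of −1.67 (SE 0.17). In the eIF4A1 IP HLA-C was 26.7 to 35.1 CPM and in the eIF4A2 IP 17.3 to 24.6 CPM. HLA-C thus lay below total RNA in all 3 IPs, and, like CCHCR1, its DDX6 IP libraries lay above those of both eIF4A IPs. Against the eIF4A2 IP, 2 of the 4 neighbours, HLA-B (0.80) and HLA-C (0.86), were called higher in the DDX6 IP and 0 lower. In that comparison 21.1% of all genes were called. Against the eIF4A1 IP 0 of the 4 were called, where only 0.0916% of all genes were. Whether the counts used the strand is not given in the sources used here, and CCHCR1 and TCF19 do not overlap in the annotation.

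The gradient experiment asks whether loss of CNOT1 changed the amount of CCHCR1 mRNA. In input RNA CCHCR1 stood at 18.8, 20.2, 20.1 and 15.3 CPM with control siRNA (18.6 ± 2.28, SD, n = 4). After CNOT1 siRNA it stood at 23.5, 27.8, 22.0 and 22.3 CPM (23.9 ± 2.68, SD, n = 4). All 4 CNOT1 siRNA libraries lay above all 4 control libraries, and the groups of 50.6% of all genes did not overlap in this comparison. The log2 fold change was 0.36 (SE 0.17, 95% interval 0.01 to 0.71), which did not pass the threshold (edgeR, adjusted p = 0.105), while 29% of all genes did.

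The call depended on which libraries set the spread. With input libraries alone the adjusted p of CCHCR1 was 0.0024 in edgeR, where 61% of all genes were called, and without both polysomal libraries of replicate 3 it was 0.0462, where 40.6% of all genes were called. An exact two-sided permutation test of log2 CPM gave p = 0.0286 for CCHCR1, the smallest value that 4 against 4 libraries allow. Over the alternatives with an adjusted p it ran from 0.0024 to 0.263. With all gradient libraries 3 P-body mRNAs were higher, DCP1B (0.39), PNRC2 (0.63) and TNRC6A (0.69), and 4 were lower, DCP2 (−0.74) among them; library totals alone gave 7 and 2. Of the centrosome mRNAs 5 were higher and 3 lower, or 6 and 1 with library totals alone. The shares called with TMM factors, 28% and 26.7%, were near the 29% of all genes. With library totals alone 30.7% of all genes were called, 3378 higher and 1773 lower. Without both doubtful polysomal libraries, 8 P-body mRNAs were higher and 6 lower, and 7 centrosome mRNAs were higher and 3 lower. HLA-C fell by 0.86 (SE 0.20, edgeR adjusted p = 0.0067) and TCF19 gave −0.10 (SE 0.09). Of the 4 neighbours tested 0 were called higher and 2 lower.

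**Figure D4:**
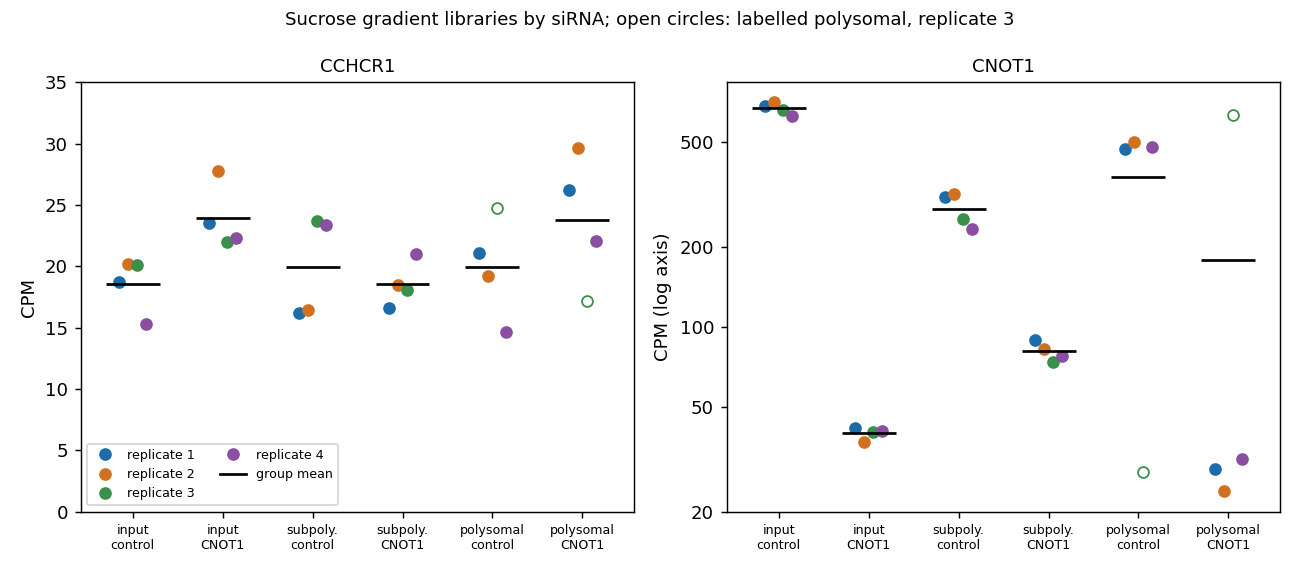
CPM of CCHCR1 (left, linear axis from 0) and of CNOT1 (right, log axis) in the 24 gradient libraries, with black lines for group means. CCHCR1 input levels are 15.3 to 20.2 CPM with control and 22.0 to 27.8 CPM with CNOT1 siRNA; the open circles, labelled polysomal replicate 3, lie with the opposite siRNA group in the CNOT1 panel.

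In subpolysomal RNA, which holds free mRNA and mRNA with few ribosomes, CCHCR1 did not differ detectably between the siRNAs. The levels were 16.2, 16.5, 23.7 and 23.4 CPM with control siRNA (19.96 ± 4.16, SD, n = 4). They were 16.6, 18.5, 18.1 and 21.0 CPM with CNOT1 siRNA (18.5 ± 1.81, SD, n = 4), all inside the range of the control libraries. The log2 fold change was −0.11 (SE 0.17, 95% interval −0.46 to 0.25, edgeR adjusted p = 0.674), where 32.2% of all genes were called. Of the P-body mRNAs 4 were higher and 1 lower, and of the centrosome mRNAs 1 was higher and 6 lower. With library totals alone these were 14 and 0, and 10 and 3, where 36.7% of all genes were called, 4972 higher and 1188 lower. The median of all genes then moved from −0.07 to 0.21. Without both doubtful polysomal libraries the list counts were 8 and 3, and 2 and 9, where 42% of all genes were called.

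In polysomal RNA, which holds mRNA carrying several ribosomes, CCHCR1 stood at 21.1, 19.2, 24.7 and 14.6 CPM with control siRNA (19.9 ± 4.21, SD, n = 4). It stood at 26.3, 29.6, 17.2 and 22.1 CPM with CNOT1 siRNA (23.8 ± 5.39, SD, n = 4). The highest control library and the lowest CNOT1 siRNA library were those labelled replicate 3, and the groups overlapped. The log2 fold change was 0.26 (SE 0.17, 95% interval −0.10 to 0.61, edgeR adjusted p = 0.673). In this comparison 0% of all genes were called by edgeR and 0 genes by DESeq2. In edgeR 1123 of 16776 genes had an unadjusted p under 0.05, with 1 P-body and 0 centrosome mRNAs among them.

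Without both libraries labelled replicate 3, polysomal CCHCR1 was 18.3 ± 3.34 CPM with control siRNA and 26.0 ± 3.80 CPM with CNOT1 siRNA (SD, n = 3). The groups then did not overlap for CCHCR1, nor for 47.8% of all genes. The log2 fold change was 0.50 (SE 0.17, edgeR adjusted p = 0.0248), where 31.7% of all genes were called. An exact permutation test gave p = 0.1, the smallest that 3 against 3 libraries allow. Of the P-body mRNAs 8 were then higher and 6 lower, and of the centrosome mRNAs 7 were higher and 1 lower.

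Comparing the fractions asks how CCHCR1 mRNA was distributed over the gradient. With control siRNA, the polysomal level minus the subpolysomal level of CCHCR1 was 0.00069 on the log2 scale (SE 0.17, edgeR adjusted p = 0.998), and it was −0.11 without both doubtful polysomal libraries. CCHCR1 was thus close to the median of all genes (−0.02), in a comparison where 71.7% of genes were called. Of the P-body mRNAs 14 were more polysomal and 4 less, with EDC4 at 0.64 and DCP2 at 0.96. Of the centrosome mRNAs 11 were more polysomal and 8 less, with PCNT at 1.14 and PCM1 at 0.48.

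With CNOT1 siRNA the same difference for CCHCR1 was 0.36 (SE 0.17, 95% interval 0.01 to 0.72, edgeR adjusted p = 0.0655), where 68.8% of all genes were called. Without both polysomal libraries labelled replicate 3 it was 0.50 (SE 0.16, edgeR adjusted p = 0.0064), where 71.9% were called. With library totals alone it was 0.06, where the median of all genes moved from −0.0084 to −0.31. Of the P-body mRNAs 10 were more polysomal and 5 less, and of the centrosome mRNAs 14 and 4. With library totals alone these were 5 and 8, and 9 and 9, where 68.5% of all genes were called. The difference between the siRNAs was tested itself, as the effect of CNOT1 siRNA on polysomal CCHCR1 less its effect on subpolysomal CCHCR1. It was 0.36 (SE 0.24, 95% interval −0.14 to 0.86, edgeR adjusted p = 0.414), where 5.66% of all genes were called. Without both libraries it was 0.61 (SE 0.22, edgeR adjusted p = 0.063), where 17.5% were called. Neither value passed the threshold. Of the P-body mRNAs 0 had a higher and 2 a lower difference, AGO2 (−0.75) and LSM2 (−0.73), which became 3 and 8 without both libraries. With library totals alone the difference of CCHCR1 was 0.10, the median of all genes moved from 0.05 to −0.21, and 0 P-body mRNAs had a higher and 7 a lower difference, where 13% of all genes were called.

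**Figure D5:**
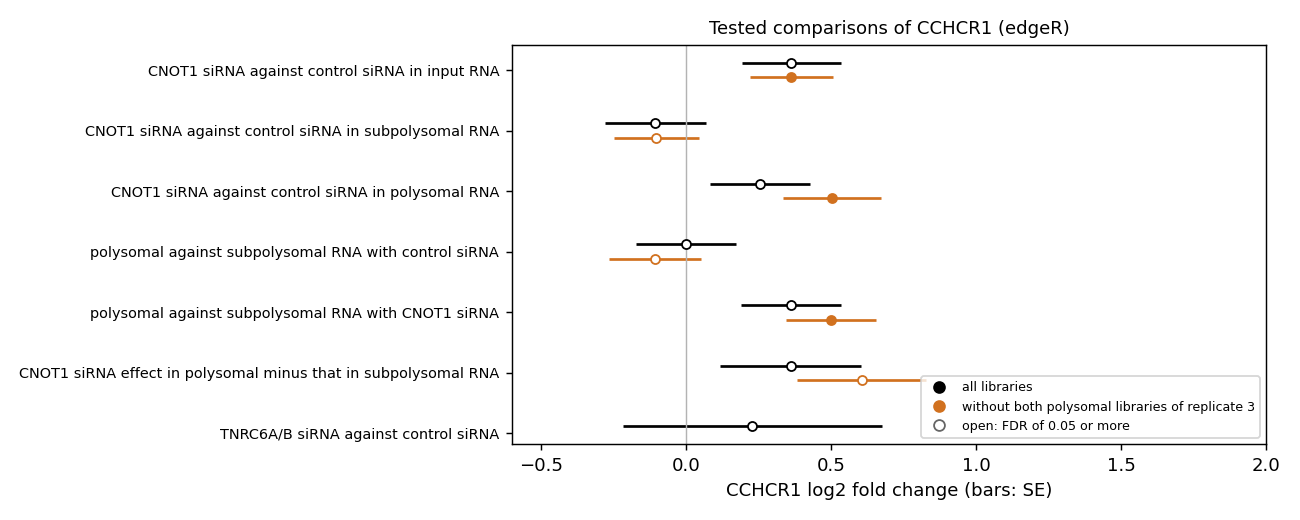
CCHCR1 log2 fold change (bars, SE) in the 7 tested comparisons with all libraries (black) and, for the gradient, without both polysomal libraries of replicate 3 (orange). Filled points have an FDR below 0.05: no black point is filled, and the orange points at 0.36, 0.50 and 0.50 are.

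Over the 24 gradient libraries the 5 genes most like CCHCR1 in log2 level were TBRG4 (r = 0.94), CCDC101 (0.92), C15orf39 (0.92), WDR24 (0.90) and KLHL22 (0.90). TBRG4 encodes a mitochondrial RNA regulator, CCDC101 a subunit of the SAGA chromatin complex, WDR24 a subunit of the GATOR2 complex and KLHL22 a ubiquitin ligase adaptor. By Spearman's rho 4 of the 5 were shared. None of the 5 genes nearest over the RIP libraries was among them. The biological coefficient of variation of CCHCR1 in this experiment was 0.17, above that of 55.0% of genes.

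In the TNRC6 experiment, which asks about GW182 proteins, the Argonaute partners that recruit deadenylases, CCHCR1 stood at 25.1 and 13.1 CPM with control siRNA (19.1 ± 8.45, SD, n = 2). It stood at 28.0 and 16.8 CPM with TNRC6A and TNRC6B siRNA (22.4 ± 7.96, SD, n = 2). Replicate 1 was the higher library in both groups, and the groups overlapped. The log2 fold change was 0.23 (SE 0.45, 95% interval −0.93 to 1.38, edgeR adjusted p = 1.0), where 0% of all genes were called; in edgeR the unadjusted p was below 0.05 for 289 of 14064 genes, and 8 genes were called by DESeq2. Of the P-body mRNAs 0 were called by edgeR, 3 of them having an unadjusted p under 0.05, and 2 were called lower by DESeq2. With the replicate number as a block CCHCR1 gave 0.25 (SE 0.18, edgeR adjusted p = 0.561), while 5.43% of all genes were called, and of the P-body mRNAs 1 was higher and 3 lower. The P-body list includes TNRC6A and TNRC6B, the siRNA targets, so its lower counts cannot be read as a response of the other members. TNRC6C, also listed, stood at 44.4 and 37.4 CPM with control siRNA and at 18.9 and 20.9 CPM with TNRC6A and TNRC6B siRNA.

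Within the RIP experiment the order of the mean CCHCR1 level was DDX6 IP, total RNA, eIF4A1 IP and eIF4A2 IP, and of neighbours in that order the 2 eIF4A IPs differed by less than their spread. Within the gradient experiment the order was CNOT1 siRNA input at 23.9 CPM, CNOT1 siRNA polysomal at 23.8, control subpolysomal at 19.96, control polysomal at 19.9, control input at 18.6 and CNOT1 siRNA subpolysomal at 18.5. Without both polysomal libraries labelled replicate 3, CNOT1 siRNA polysomal came first at 26.0 CPM and control polysomal last at 18.3 CPM. In neither order did 2 neighbours differ by more than the larger of their SDs. RIP total RNA at 39.6 CPM, control input at 18.6 CPM and the TNRC6 control at 19.1 CPM were scaled separately and are set side by side only.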

How the data were processed

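The authors made the deposited counts, whole reads per gene symbol, from poly(A)-selected stranded libraries (bcl2fastq 2.0, TopHat2 on hg19, HTSeq, per the labels); the strand setting and annotation are not given in the sources used here. A further deposited table holds the authors' own edgeR results for each IP against total RNA and was not used. No column of another series was used. The counts went into edgeR 4.0.16 (R 4.3.3), with 1 fit each over the 12 RIP, 24 gradient and 4 TNRC6 libraries: filterByExpr (17474, 16776 and 14064 genes kept), TMM factors and quasi-likelihood tests of group means, two-sided, with calls made where the FDR (Benjamini-Hochberg, all genes) was under 0.05. Likeness used log2(CPM + 0.5) over genes of at least 10 CPM. The script was tested on simulated data. Alternatives were DESeq2 1.42.0, RLE factors, no TMM factors, no low-count filter, a replicate block, only the compared libraries, leaving out each library or both polysomal libraries of replicate 3, and exact permutation tests. Counts of the lists without DDX6 IP replicate 1 or both polysomal libraries, and permutation tests without the latter, were chosen after seeing the data.

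Replicate numbers come from the titles; the description of RIP total RNA replicate 3 says replicate 2, so the RIP pairing rests on the title there. In the RIP experiment all 18 same-numbered pairs deviated together (r 0.17 to 0.88), so the numbers pair the samples. They also did so between the siRNAs in input (r 0.13 to 0.59) and subpolysomal RNA (0.75 to 0.87). In polysomal RNA r ran from −0.56 to 0.11, with −0.56 between the 2 libraries labelled replicate 3. The polysomal group means include these libraries, whose CNOT1 level went against the label. The polysomal values therefore do not show whether the numbers pair those samples. The TNRC6 experiment has 2 pairs only. The labels do not say that replicates are separate cultures, so p-values measure the spread between these samples, which may be technical. Depth was 15.4 to 46.0 M counts per library, and reads carry no molecular identifiers. The 95% intervals of levels in single libraries cover counting error only. Those of log2 fold changes come from the edgeR fit and include the spread between libraries.

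Named genes were CCHCR1, the siRNA and IP targets, the 5 genes most like CCHCR1 in the RIP and in the gradient libraries, EDC4, DCP1A, DCP1B and DCP2, the neighbours TCF19, PSORS1C1, PSORS1C2 and HLA-C, and PCM1, PCNT and CEP192. Other genes in the text, such as PABPC1, RPS19 and list members, were named after their values were seen. CCHCR1, the lists and the tests were chosen with earlier results of these data known. Positions and transcripts are from GENCODE release 44 on GRCh37 (1-based; hg19 coordinates). Of the centrosome list, CEP131 was matched by its older symbol, and 821 genes of the feature ranks were matched by an older symbol.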

Additional observations from a re-analysis of the deposited data

How the results depend on the processing

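All of this concerns CCHCR1. In the IPs, the DDX6 IP stayed above total RNA and both eIF4A IPs under every alternative, and leaving out each library in turn gave log2 fold changes of 1.30 to 2.06, 1.71 to 2.47 and 1.76 to 2.51. With library totals in place of TMM factors the eIF4A1 and eIF4A2 IPs gave −0.16 and −0.15 against total RNA; the median of all genes then moved to 0.29 and 0.32, and relative to it CCHCR1 was at −0.45 and −0.47, as with TMM factors (−0.45 and −0.47). The DDX6 against eIF4A1 IP comparison called 16 genes, and 1730 with the replicate block. With only the compared libraries edgeR called 0 genes, with 1989 at an unadjusted p below 0.05. The replicate block changed no call of CCHCR1: it gave 0.37 (edgeR adjusted p = 0.113) in input and −0.0070 for polysomal against subpolysomal RNA with control siRNA. In input RNA the call was gained with only the compared libraries (0.38, adjusted p = 0.0024) and without both polysomal libraries of replicate 3 (0.36, adjusted p = 0.0462). The exact permutation test there (0.37, p = 0.0286) gives an unadjusted p, as edgeR's 0.0431 is, and so no call. Without both libraries it was also gained in polysomal RNA (0.50) and for polysomal against subpolysomal RNA with CNOT1 siRNA (0.50; exact permutation 0.48, unadjusted p = 0.0286). The latter was also gained without CNOT1 siRNA subpolysomal replicate 4 (0.43) or CNOT1 siRNA polysomal replicate 3 (0.50), within a range of 0.25 to 0.50, but it was 0.06 with library totals alone, which also took the interaction from 0.36 to 0.10; relative to the median of all genes these were 0.37 and 0.31. Uncalled differences changed sign. Polysomal against subpolysomal RNA with control siRNA became −0.0443 with library totals alone, −0.0899 with only the compared libraries, −0.11 without both polysomal libraries, −0.0047 by permutation and −0.12 by permutation without both, and it ran from −0.11 to 0.14 on leaving out single libraries (−0.08, −0.07, −0.01 and −0.11 where negative). Subpolysomal CCHCR1 became 0.17 with library totals alone, where the median of all genes moved to 0.21. The TNRC6 difference ran from −0.19 to 0.76 on leaving out single libraries, with −0.11 without control replicate 2 and −0.19 without TNRC6A/B siRNA replicate 1. Leaving out single libraries gave 0.28 to 0.40 in input, −0.19 to −0.01 in subpolysomal and 0.13 to 0.38 in polysomal RNA, and 0.23 to 0.49 for the interaction, with 0 calls in edgeR. The cause of these changes was not tested. Precision rests on 2 to 4 libraries per group; in the DDX6 IP the counting intervals of CCHCR1 were narrower than the spread between libraries.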
